A study of Mus musculus with 6 samples.

Results

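The duct and epithelial genes are 33 genes chosen because they mark the duct lining of the pancreas or simple epithelia in general: keratins, junction proteins, bicarbonate and water transporters, epithelial transcription factors, mucins and trefoil peptides, secreted proteins and proteases, membrane-binding proteins and cilium genes. All 33 were measured, by 64 of the 45037 probe sets tested, each annotated to exactly 1 of the member symbols. A total of 19 members had 1 probe set and 14 had several, and each gene is represented below by its brightest probe set, that with the highest mean across the 6 arrays. Expression was measured in isolated islets of Langerhans of 3 wild-type and 3 hIAPP_Tg mice, 1 Affymetrix array per mouse (wild_type replicates 1 to 3 and hIAPP_Tg replicates 4 to 6). The labels give an age of 12 weeks and standard chow for both groups, while the series' design text gives 10 to 12 weeks. Both genotypes carry the designation FVB/N-Tg(Ins2-IAPP)RFHSoel/J, which names a transgene that expresses human islet amyloid polypeptide, a hormone co-secreted with insulin, from the insulin gene promoter. This promoter is active in beta cells, while the genes described here were chosen as marks of duct or of epithelial cells in general. Which islet cells made their RNA was not measured. The labels do not say whether the wild-type mice were littermates or whether the transgene was carried on 1 or both alleles. Values are the log2 RMA values of the deposited table, in steps of 0.1, and differences are hIAPP_Tg minus wild type on that scale.

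The pancreatic duct is a simple epithelium that carries digestive enzymes to the gut and adds a bicarbonate-rich fluid, which needs an apical chloride and bicarbonate channel, a basolateral bicarbonate transporter and carbonic anhydrase. Its cells are held together by E-cadherin, Epcam and claudins, and stiffened by keratin filaments, in which a type I keratin pairs with a type II keratin. Endocrine islet cells descend from the same embryonic duct-like epithelium and are epithelial cells themselves, so E-cadherin, Epcam and the Krt8 and Krt18 pair are found in islets without any duct cell.

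The islet label was checked on endocrine markers, of which 18 of 19 measured stood above the array median of 5.7, with Ins2 at 15.1, the top of the scale, on every array. The mouse Iapp probe set had means of 14.93 in wild-type and 14.97 in hIAPP_Tg islets, and as it need not bind the human transcript, it does not check the genotype labels. Over all probe sets 13 of 45037 passed an adjusted p of 0.05 in limma (0.0289%). The mean over 25 acinar markers varied within both genotypes, from 9.72 to 11.24 in wild-type and from 8.72 to 10.76 in hIAPP_Tg islets. In the difference between genotypes 22 of the 25 lay below 0 (40.5% of all genes did). For 30 macrophage markers the mean ran from 7.03 to 7.20 in wild-type and from 7.71 to 7.84 in hIAPP_Tg islets, with 22 of 30 above 0. Adgre1, the gene of a macrophage surface antigen, differed by 1.13 and did not pass (limma adjusted p = 0.419). The medians of the differences were -0.033 for 19 endocrine, -0.017 for 16 stellate and fibroblast, -0.05 for 14 endothelial and 0.017 for 10 lymphocyte markers. Only the endothelial mean of these did not overlap, at 7.68, 7.61 and 7.59 in wild-type and 7.58, 7.54 and 7.48 in hIAPP_Tg islets. At an unadjusted p under 0.05, 4 of these 14 were lower (3.45% of all genes were) and 0 higher (5.02%), and 0 passed after adjustment. In whole islets, fewer cells of a type and less RNA per cell cannot be told apart.

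The levels of duct markers were mixed. Of the 5 members described whatever their values, Krt7 had a mean of 10.5 over the 6 arrays, well above the array median. The other 4 lay around or below it, where a signal above background cannot be assumed: Krt19 had a mean of 5.67 in both genotypes, Cftr one of 3.97 in both, Sox9 5.53 in wild-type and 5.40 in hIAPP_Tg islets, and Muc1 5.77 and 5.63. Members that endocrine cells share, such as Cdh1, Epcam, Krt8, Krt18, Cldn3 and Cldn7, all lay above the array median. In all, 22 of 33 members did so and 11 did not. Of 23 other duct genes measured, 17 lay above the array median, among them Clu, a secreted chaperone, at a mean of 11.55, Prom1 at 8.93 and Glis3 at 8.55. The rest did not, among them Vtcn1 at 3.58, Tead2 at 4.00 and Lcn2 at 4.05. In whole islets a level does not show which cells made the RNA, so these levels are no measure of duct cells.

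No member passed the test between genotypes. The count was 0 of 64 probe sets at an adjusted p of 0.05 (limma, Benjamini-Hochberg over all probe sets), with a smallest adjusted p of 0.269, for Dcdc2a, and a next smallest of 0.552. At an unadjusted p under 0.05 there were 10 of 64 member probe sets (15.6%), where 7.33% of all probe sets did so, 4 of them higher (6.25% against 3.82%) and 6 lower (9.38% against 3.51%) in hIAPP_Tg islets. With quantile normalization 7 did so, of which 1 was higher (6.97% of all probe sets in either direction). The count depended on which array was left out. It was 4 (1 higher) without wild_type replicate 1, 3 (0 higher) without wild_type replicate 3 and 5 (0 higher) without hIAPP_Tg replicate 5, when 8.89%, 6.59% and 7.33% of all probe sets did so. It was 9 (3 higher) without wild_type replicate 2, 9 (2 higher) without hIAPP_Tg replicate 4 and 11 (7 higher) without hIAPP_Tg replicate 6, against 9.99%, 10.1% and 7.76%. The genotypes did not overlap on the brightest probe set of 7 of 33 genes (21.2%), where 7.7% of all 18193 named genes did so. These were Krt7 and Epcam, which were higher (6.06% of the members against 4.49% of all genes), and Dcdc2a, Ehf, Ambp, Wfdc2 and Krt23, which were lower in hIAPP_Tg islets (15.2% against 3.22%). The members were chosen with earlier results of these data known, so these shares are a description and were not tested.

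The differences were small for most members. Of the 33, 23 differed by at most 0.20 in size and 5 by exactly 0, and for 22 the 95% interval of the difference lay within 0.5 of 0 on both sides. The median difference was -0.033 (0 over all genes), and 10 members lay above 0 (30.3%; 48% of all genes) and 18 below (54.5%; 40.5% of all genes). A log2 difference of at least 0.5 in size was measured for Dcdc2a and Tff2 only, 2 of 33 (6.06%), against 1.57% of all genes. The median size of the difference was 0.17, against 0.067 over all genes. By role, 5 of 6 junction genes lay above 0, while all 3 mucin and trefoil genes, both cilium and RNA-binding genes and 3 of 4 secreted proteins and proteases lay below it.

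**Figure D1:**
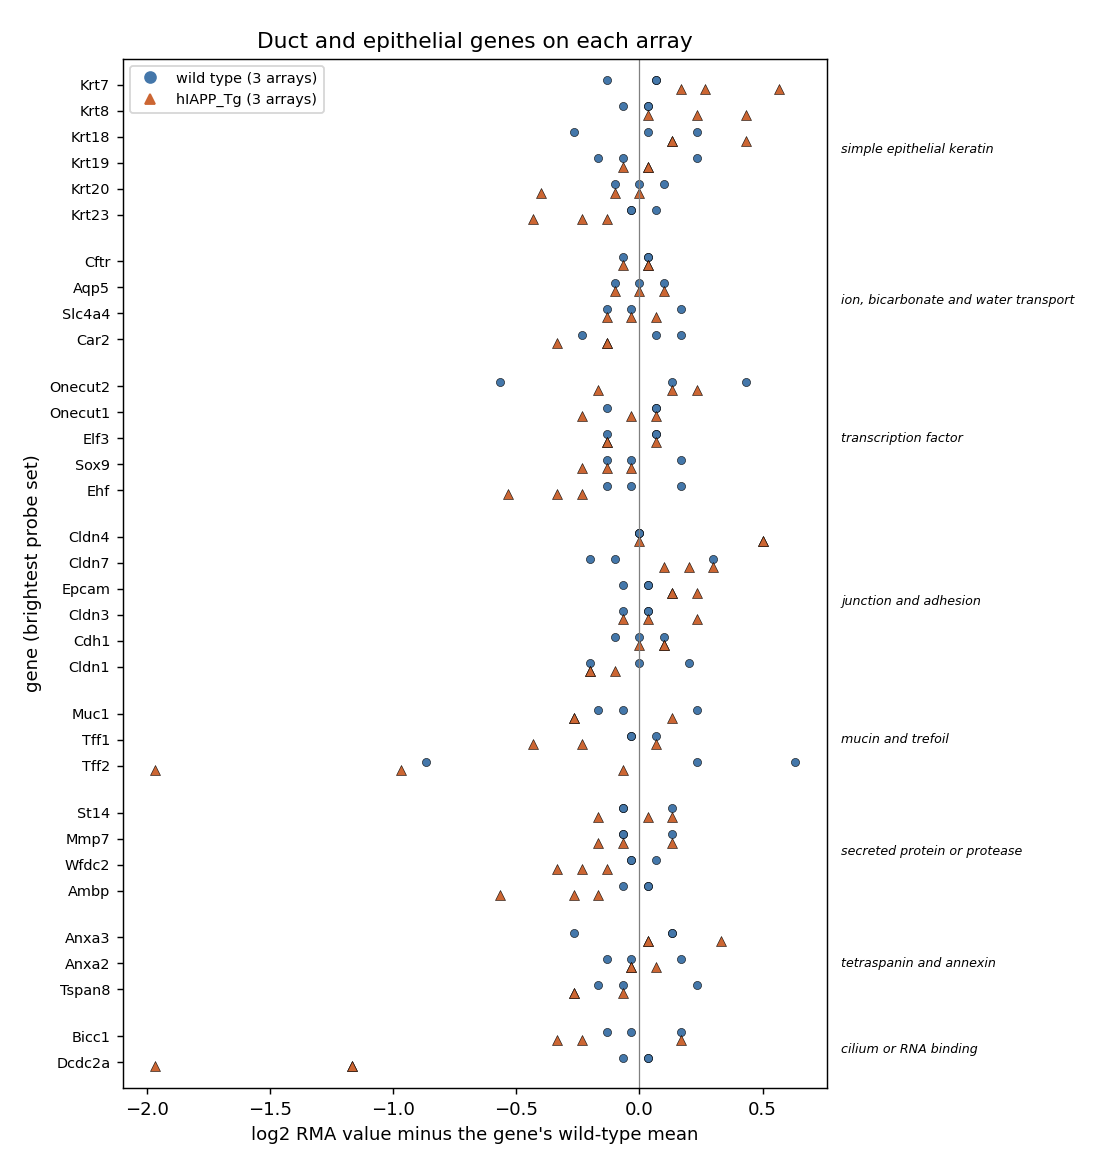
Log2 value of the brightest probe set of each of the 33 genes on each array, less the gene's wild-type mean (x axis), with genes by role on the y axis; circles are the 3 wild-type and triangles the 3 hIAPP_Tg arrays. Most genes scatter close to 0 in both genotypes, and Dcdc2a and Tff2 are the genes with a log2 difference of at least 0.5 in size.

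**Figure D2:**
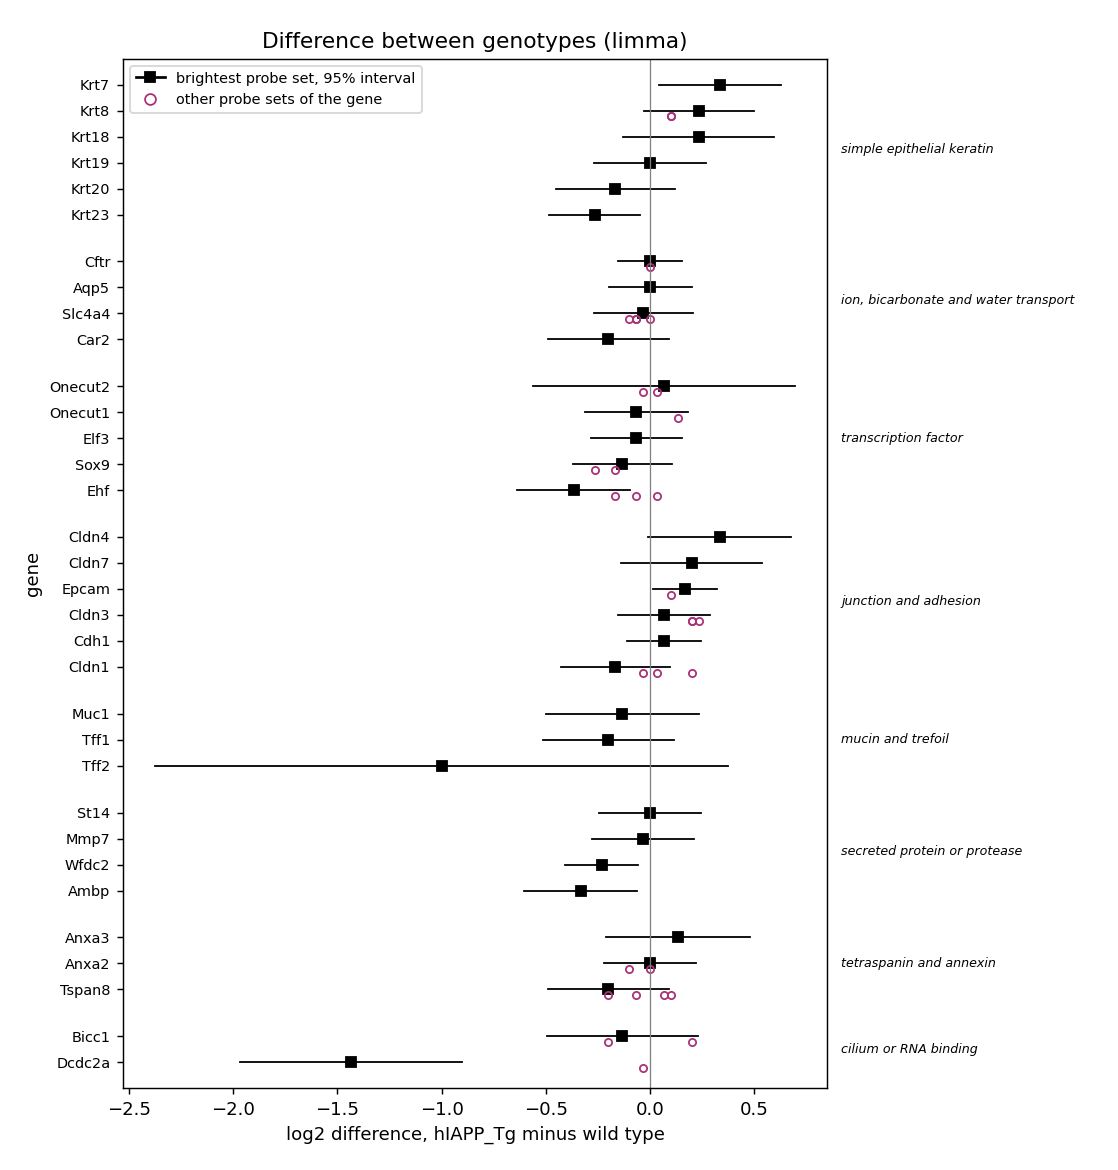
Difference hIAPP_Tg minus wild type on the log2 scale (x axis) for each gene (y axis); squares are the brightest probe set with its 95% interval from limma (3 arrays per genotype), and open circles are the other probe sets of the gene. The second Dcdc2a probe set lies at -0.033, far from the first at -1.43.

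The start regions of 5 members are shown, picked by their values, none of which passed the test. Krt7, Krt8 and Krt18 are keratin genes near each other on chromosome 15 (Krt8 and Krt18 as direct neighbours in opposite orientation), and all had positive differences. Epcam is the junction gene whose genotypes did not overlap on the brightest probe set, and Dcdc2a had the largest difference. Each region is the 250 bases before the gene's start from RefSeq on GRCm38.p6, 5′ to 3′ on the gene's strand. In that source 22 of the 33 members had an entry. Capitals mark every match, on either strand, to CACCTG (the E-box that Snail and Zeb repressors of epithelial genes are known to bind), GGGCGG (the GC box, bound by Sp factors), TATAAA (the TATA box of core promoters), CCAAT (the box bound by NF-Y) or GGAAGT (an ETS factor site), and no matches of different motifs overlapped in these 5. Krt7 lies on the plus strand with the window chr15:101412153-101412402, Krt8 on the minus strand (chr15:102004343-102004592), Krt18 on the plus strand (chr15:102027966-102028215), Epcam on the plus strand (chr17:87635729-87635978) and Dcdc2a on the plus strand (chr13:25055754-25056003).
Krt7: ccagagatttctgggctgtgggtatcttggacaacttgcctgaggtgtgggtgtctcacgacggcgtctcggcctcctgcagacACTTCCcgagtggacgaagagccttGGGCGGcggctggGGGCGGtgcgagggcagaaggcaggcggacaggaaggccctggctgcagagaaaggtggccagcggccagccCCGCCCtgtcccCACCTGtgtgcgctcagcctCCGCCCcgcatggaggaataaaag
Krt8: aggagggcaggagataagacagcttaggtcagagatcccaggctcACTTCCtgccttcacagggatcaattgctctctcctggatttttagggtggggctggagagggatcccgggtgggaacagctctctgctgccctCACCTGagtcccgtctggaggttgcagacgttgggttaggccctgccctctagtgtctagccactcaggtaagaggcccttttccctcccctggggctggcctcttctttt
Krt18: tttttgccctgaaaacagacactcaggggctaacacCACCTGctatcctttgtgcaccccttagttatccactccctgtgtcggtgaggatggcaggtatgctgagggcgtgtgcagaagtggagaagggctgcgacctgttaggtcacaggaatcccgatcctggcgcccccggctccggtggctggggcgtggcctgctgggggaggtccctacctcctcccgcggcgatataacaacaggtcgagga
Epcam: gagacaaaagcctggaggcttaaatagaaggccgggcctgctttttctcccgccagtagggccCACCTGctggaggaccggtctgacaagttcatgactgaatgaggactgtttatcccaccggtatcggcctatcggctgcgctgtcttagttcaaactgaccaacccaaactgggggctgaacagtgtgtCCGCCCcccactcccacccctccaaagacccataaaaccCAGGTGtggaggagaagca
Dcdc2a: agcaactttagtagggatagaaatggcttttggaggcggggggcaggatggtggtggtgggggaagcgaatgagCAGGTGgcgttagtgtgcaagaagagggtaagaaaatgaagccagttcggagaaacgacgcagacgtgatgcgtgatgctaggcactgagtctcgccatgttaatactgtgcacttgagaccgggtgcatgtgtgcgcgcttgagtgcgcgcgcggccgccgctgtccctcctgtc
All 5 windows held the E-box letters, Epcam at 2 places and the others at 1. The letters stood in 14 of the 26 entries of members (53.8%; some genes have several starts) and in 17.2% of 32851 such windows of all genes. GC boxes stood 4 times in Krt7, once in Epcam and in none of the other 3, and also in 14 of the 26 entries of members (53.8%), against 32.7% of all windows. An ETS match stood in Krt7 and Krt8 (26.9% of member entries and 19.7% of all windows). None of the 5 held TATAAA (15.4% and 12.4%) or CCAAT (23.1% and 33.8%). The windows were 56.4% to 66% G and C, against a median of 52.4% over all windows, and no link between these letters and the expression values was tested.

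The 3 member keratins of chromosome 15 were higher in hIAPP_Tg islets by values that did not pass the test. Krt7, a type II keratin of duct and other simple epithelia, was at 10.2, 10.4 and 10.4 in wild-type and at 10.6, 10.9 and 10.5 in hIAPP_Tg islets. All 3 hIAPP_Tg values stood above all 3 wild-type values. The difference was 0.33 (95% interval 0.041 to 0.63; SE 0.12; limma adjusted p = 0.620), or 1.26-fold. Krt8, the type II partner of Krt18, was at 9.8, 9.9 and 9.9 against 10.3, 10.1 and 9.9, which met at 9.9, and differed by 0.23 (interval -0.029 to 0.50). Its other 2 probe sets both differed by 0.10. Krt18 stood at 10.1, 10.6 and 10.4 against 10.5, 10.8 and 10.5, and its difference of 0.23 (interval -0.13 to 0.60) came with overlapping genotypes.

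The type I keratins of chromosome 11 among the members had differences of 0 or below. Krt19, the keratin by which pancreatic ducts are most often stained, was at 5.9, 5.5 and 5.6 in wild-type and 5.7, 5.6 and 5.7 in hIAPP_Tg islets. The genotypes overlapped fully, with a difference of 0 and an interval of -0.27 to 0.27. Krt20, a keratin of gut and urinary epithelium, lay near the floor with a difference of -0.17 (4.10 ± 0.10 against 3.93 ± 0.21, SD, n = 3 each). Krt23, its direct neighbour, was at 5.4, 5.3 and 5.3 against 5.2, 4.9 and 5.1. Every hIAPP_Tg value lay below every wild-type value, and the difference was -0.27 (interval -0.49 to -0.048; limma adjusted p = 0.557), at a level under the array median.

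Among junction genes the values leaned upward. Epcam, a cell adhesion molecule of most epithelia, was at 11.2, 11.2 and 11.1 in wild-type and 11.3, 11.4 and 11.3 in hIAPP_Tg islets. The genotypes did not overlap, by a single rounding step, and differed by 0.17 (interval 0.015 to 0.32; limma adjusted p = 0.620), or 1.12-fold. Its second probe set differed by 0.10. Cdh1, which encodes E-cadherin, the core of the adherens junction, differed by 0.067 (interval -0.11 to 0.24), at 11.5, 11.7 and 11.6 against 11.7, 11.7 and 11.6.

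Claudins seal the tight junction and set which ions pass it. Cldn4 was at 7.7 on all 3 wild-type arrays and at 8.2, 8.2 and 7.7 on the hIAPP_Tg arrays. The hIAPP_Tg replicate 6 stood at the wild-type value, so the genotypes met at 7.7, and the difference was 0.33 (interval -0.011 to 0.68). Cldn3, its direct neighbour on chromosome 5, differed by 0.067 on its brightest probe set (9.47 ± 0.058 against 9.53 ± 0.15), while the other 3 probe sets differed by 0.20 to 0.23. On one of these 3, at 6.4, 6.5 and 6.3 against 6.7, 6.6 and 6.5, the values of the genotypes met at 6.5, and on another, at 7.9, 8.2 and 8.2 against 8.3, 8.4 and 8.3, they did not overlap. Cldn7 stood at 9.6, 10.1 and 9.7 against 9.9, 10.0 and 10.1 and differed by 0.20. Cldn1 lay near the floor on all 4 probe sets, with differences from -0.17 to 0.20, and the one at 0.20 (4.2, 4.2 and 4.1 against 4.3, 4.5 and 4.3) had no overlap.

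Of the 4 genes of fluid secretion, Slc4a4 and Car2 lay above the array median and Cftr and Aqp5 below it, and the genotypes overlapped for all 4. Cftr, the apical chloride and bicarbonate channel, was at 4.0, 3.9 and 4.0 in wild-type and 4.0, 4.0 and 3.9 in hIAPP_Tg islets, a difference of 0 with an interval of -0.15 to 0.15. Its second probe set also differed by 0. At this level, near the floor of the scale, a difference may not be measurable. Slc4a4, the sodium-bicarbonate cotransporter, was at 6.6, 6.7 and 6.9 against 6.7, 6.8 and 6.6 on the brightest of its 5 probe sets, whose differences ran from -0.10 to 0. Car2, a carbonic anhydrase, was at 6.6, 6.2 and 6.5 against 6.1, 6.3 and 6.3, with overlap and a difference of -0.20 (interval -0.49 to 0.092). The water channel gene Aqp5 had a mean of 4.80 in both genotypes.

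Of the transcription factors, Ehf stood apart. Ehf, an ETS factor restricted to epithelia, was at 7.0, 7.1 and 7.3 in wild-type and 6.9, 6.6 and 6.8 in hIAPP_Tg islets. All hIAPP_Tg values lay below the lowest wild-type value, and the difference was -0.37 (interval -0.64 to -0.097; limma adjusted p = 0.552), or 1.29-fold lower. Its other 3 probe sets differed by -0.17, -0.067 and 0.033. The average over the 4 probe sets gave -0.14. Elf3, a related epithelial ETS factor, differed by -0.067.

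Sox9, which maintains duct cells and pancreatic progenitors, was at 5.5, 5.7 and 5.4 against 5.3, 5.5 and 5.4 on its brightest probe set. The genotypes overlapped, and the difference was -0.13 (interval -0.37 to 0.10). All 3 Sox9 probe sets had lower means in hIAPP_Tg islets, the others by -0.27 and -0.17, each at or below the array median. Onecut1, which acts upstream of endocrine and duct fates in the embryo, differed by -0.067, and Onecut2, its relative, by 0.067, both below the array median and with overlap.

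**Figure D3:**
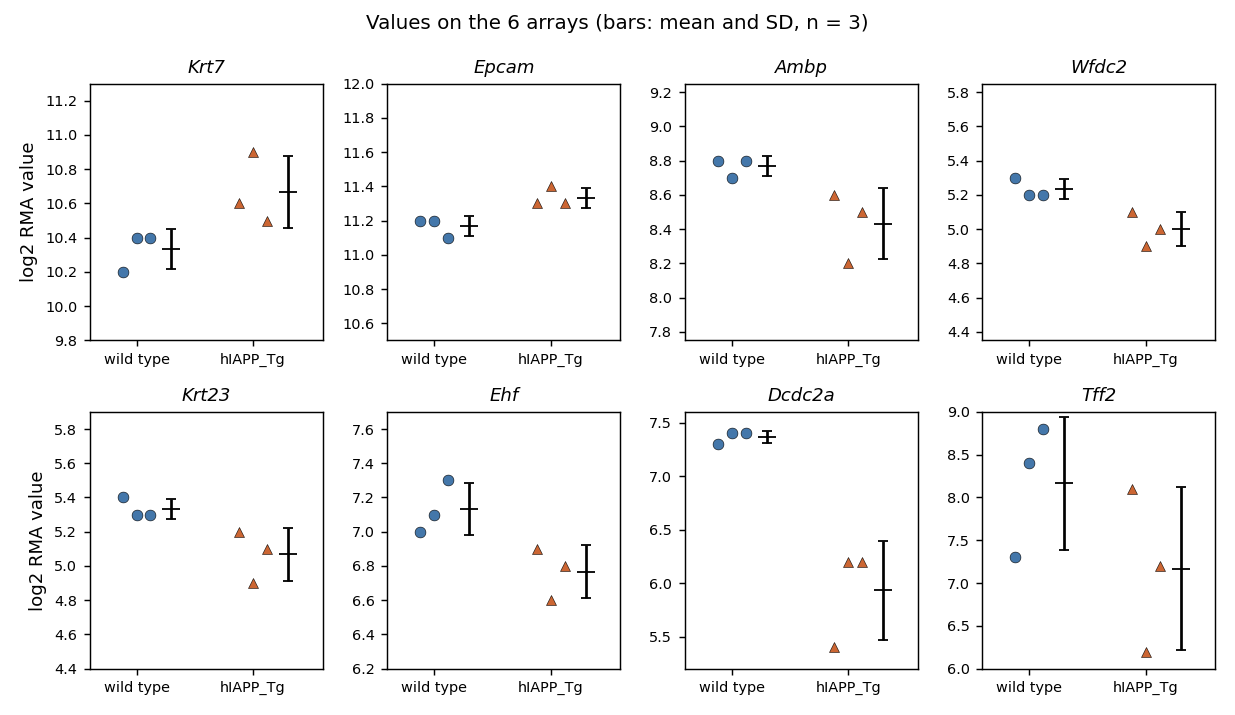
Log2 RMA values (y axis, a different range in each panel) on the 3 wild-type arrays (circles) and 3 hIAPP_Tg arrays (triangles) for 8 genes, with the mean and SD of each genotype beside the points. The first 7 genes are those whose genotypes did not overlap; for Tff2 they did, from 6.2 to 8.8.

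The mucin and trefoil genes held the member with the widest spread. Tff2, a secreted trefoil peptide that protects mucosal surfaces, was at 7.3, 8.4 and 8.8 in wild-type and 8.1, 6.2 and 7.2 in hIAPP_Tg islets. The genotypes overlapped, and the difference of -1.0 had an interval of -2.37 to 0.37 (limma adjusted p = 0.711). It was -0.52 without hIAPP_Tg replicate 5 and -1.47 without hIAPP_Tg replicate 4. Over the 6 arrays the order of Tff2 was close to that of the acinar marker mean, which was 9.72, 10.90 and 11.24 in wild-type and 10.76, 8.72 and 9.96 in hIAPP_Tg islets. Pearson's r was 0.990 (exact permutation p = 0.0028) and Spearman's rho 0.943 (exact permutation p = 0.0167), and r was 0.967 over the 4 arrays left without hIAPP_Tg replicate 5 and wild_type replicate 3. With adjustment over the 33 members compared in this way, the exact permutation p became 0.0917 for r and 0.367 for rho. With the acinar mean as a covariate the Tff2 difference was -0.24 (limma adjusted p = 0.735). Its unadjusted limma p was 0.0329 in that fit and 0.126 in the main fit.

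Tff1, the direct neighbour of Tff2 on chromosome 17, was at 8.0, 8.0 and 8.1 against 8.1, 7.8 and 7.6, a difference of -0.20 (interval -0.51 to 0.11). Muc1, a transmembrane mucin of the apical duct surface, was at 5.6, 5.7 and 6.0 against 5.9, 5.5 and 5.5, and its difference of -0.13 (interval -0.50 to 0.23) came with overlap. With the acinar mean as a covariate it was 0.023. Of the other members, Ehf had an r of 0.856 with the acinar mean (exact permutation p = 0.0306, adjusted 0.413), which was 0.396 over the 4 arrays left, and its difference with the covariate was -0.24. None of the 33 relations passed an adjusted p of 0.05, and the part of acinar RNA in these differences was not tested further.

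**Figure D4:**
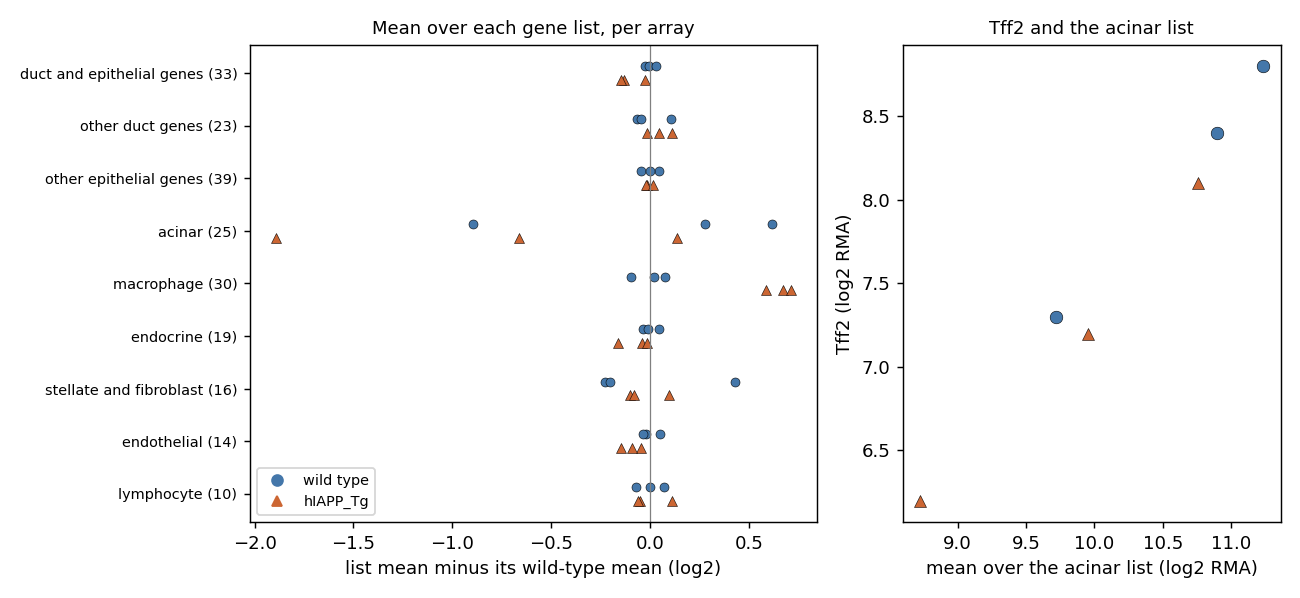
Left, mean over each gene list on each array less its wild-type mean (log2, x axis), with the number of measured genes in brackets; circles are wild-type and triangles hIAPP_Tg arrays. Right, Tff2 against the mean over the acinar list on the 6 arrays, where both run from hIAPP_Tg replicate 5 (6.2 and 8.72) to wild_type replicate 3 (8.8 and 11.24).

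Of the secreted proteins and proteases, Ambp and Wfdc2 had genotypes that did not overlap. Ambp, which encodes the precursor of the protease inhibitor bikunin, was at 8.8, 8.7 and 8.8 in wild-type and 8.6, 8.2 and 8.5 in hIAPP_Tg islets. It was lower on all 3 hIAPP_Tg arrays, with a difference of -0.33 (interval -0.60 to -0.063; limma adjusted p = 0.557). Wfdc2, a small secreted protein with whey acidic protein domains, was at 5.3, 5.2 and 5.2 against 5.1, 4.9 and 5.0, below the array median in both genotypes. Its difference was -0.23 (interval -0.41 to -0.056; limma adjusted p = 0.552). With the acinar mean as a covariate the differences were -0.24 for Ambp and -0.21 for Wfdc2. The metalloprotease gene Mmp7 differed by -0.033 and St14, which encodes the membrane protease matriptase, by 0 (interval -0.25 to 0.25).

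Tetraspanin and annexin genes differed little. Tspan8, a tetraspanin of digestive epithelia, was at 8.5, 8.6 and 8.9 against 8.6, 8.4 and 8.4, a difference of -0.20 with overlap, and its other 4 probe sets differed by -0.20 to 0.10. Anxa2, a calcium-dependent membrane-binding protein, differed by 0 (interval -0.22 to 0.22) and Anxa3, its relative, by 0.13.

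Dcdc2a had the largest difference of the 33. It encodes a doublecortin-domain protein that binds microtubules and is found in the primary cilium. Its brighter probe set was at 7.3, 7.4 and 7.4 in wild-type and 5.4, 6.2 and 6.2 in hIAPP_Tg islets. The wild-type arrays lay within 1 step of each other and every hIAPP_Tg array was lower by at least 1.1. The difference was -1.43 (interval -1.97 to -0.90; SE 0.22; limma adjusted p = 0.269), or 2.70-fold lower, and it did not pass the test. The second probe set, with a mean of 5.75, close to the array median, was at 5.8, 5.7 and 5.8 against 5.8, 5.8 and 5.6 and differed by -0.033, so the probe sets of this gene disagree. With both averaged the difference was -0.73 (limma adjusted p = 0.128), and over all alternatives it ran from -1.59 to -0.73, with adjusted p of 0.0886 to 0.704. The difference was -1.59 with the acinar mean as a covariate. Bicc1, an RNA-binding protein whose loss gives cystic kidneys, was at 8.5, 8.2 and 8.3 against 8.5, 8.0 and 8.1 and differed by -0.13, with its other 2 probe sets at -0.20 and 0.20.

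Other genes of the duct program, from a list of 28 of which 23 were measured, did not pass either. At an unadjusted p under 0.05, 3 were higher (5.02% of all genes were) and 1 was lower (3.45%), and the median difference was -0.067. Cldn10, a claudin that forms ion pores, was at 5.9, 5.6 and 5.6 against 5.2, 5.1 and 5.2, lower on all 3 hIAPP_Tg arrays and close to the array median (difference -0.53, limma adjusted p = 0.366). Lgals3, a galectin of duct cells that macrophages also make, was at 6.8, 5.7 and 6.0 against 8.5, 7.5 and 7.7, with no overlap (difference 1.73, limma adjusted p = 0.419). On the macrophage list 3 of 30 genes passed the test (Mpeg1, Tyrobp and Lyz1). Cd68, its phagosomal marker, did not (limma adjusted p = 0.150). Cd68 stood at 5.1 on every wild-type array and at 7.5, 6.5 and 7.0 on the hIAPP_Tg arrays. The part of macrophage RNA in the Lgals3 difference was not tested. Atp1b1, a sodium pump subunit, differed by 0.40 and the Notch ligand gene Jag1 by 0.23, both without overlap. The secretin receptor gene Sctr differed by -0.10, the fibrocystin gene Pkhd1 by -0.17 and Prom1, an apical membrane protein, by -0.067.

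Of 40 other epithelial genes, 39 were measured, and 0 passed in limma after adjustment. At an unadjusted p under 0.05, 4 of the 39 were higher (5.02% of all genes were) and 2 lower (3.45%), with a median difference of 0.033. The tight junction genes Cldn12 and Ocln, which encodes occludin, both differed by 0.23, and Spint1, an inhibitor of matriptase, by 0.33 (limma adjusted p = 0.503 for each), all 3 without overlap. Itgb4, the integrin of hemidesmosomes, differed by -0.27. The mean over this list ran from 7.49 to 7.58 in wild-type and from 7.51 to 7.55 in hIAPP_Tg islets, which overlapped.

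The mean over the 33 members also overlapped. It was 7.27, 7.30 and 7.33 in wild-type and 7.28, 7.17 and 7.16 in hIAPP_Tg islets, a difference of -0.10. Without Dcdc2a it was -0.059 and without Dcdc2a and Tff2 -0.029, both settings chosen after the values were seen, so these genes carried most of it. The mean over the 6 junction genes was 9.05, 9.22 and 9.05 against 9.27, 9.23 and 9.15, and that over the 6 keratins 7.60, 7.63 and 7.60 against 7.72, 7.67 and 7.63, where both lists overlapped or met between genotypes. The 5 transcription factors had means of 5.94, 5.76 and 5.88 against 5.78, 5.80 and 5.66, with overlap. The mean over 4 secreted proteins and proteases was 6.70, 6.65 and 6.63 against 6.58, 6.43 and 6.53 and did not overlap. Nor did that over the 2 cilium and RNA-binding genes, Dcdc2a and Bicc1, at 7.90, 7.80 and 7.85 against 6.95, 7.10 and 7.15. Bicc1 by itself overlapped, so this separation rests on the brighter probe set of Dcdc2a, whose probe sets disagree. The means over the transport, the mucin and trefoil, and the tetraspanin and annexin genes overlapped.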

How the data were processed

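RNA from islets of 6 mice was taken up in Trizol and 150 ng of total RNA was labelled with biotin, per the labels' protocols. The deposited table holds log2 expression values that the authors computed by RMA, with affy, per the submitters' processing notes; the sources used here give no version. Values run from 2.9 to 15.1, with a median of 5.7 on every array. RMA compresses differences near both ends of the scale, and no detection call was used. Precision is limited by the number of arrays, as arrays have no sequencing depth.

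The 64 control probe sets were left out. Some listed genes are not reported here. Names came from the platform annotation matched through Entrez numbers to a RefSeq table (GRCm38.p6), which also gave the gene order. Of the probe sets tested, 34945 had 1 symbol, 932 several and 9160 none. All 45037 were tested two-sided for genotype alone by lmFit and eBayes of limma 3.58.1 (R 4.3.3), p was adjusted over all of them (Benjamini-Hochberg), and intervals are at 95%. The members and gene lists were chosen with earlier results of these data known. Values on all arrays were given for members with an adjusted p under 0.05, an unadjusted p under 0.05, a log2 difference of at least 0.5 or genotypes that do not overlap (ties count as overlap), and for Krt19, Krt7, Sox9, Cftr and Muc1 always, while those of others were added after they were seen. Of the other lists, up to 4 genes by smallest p were eligible, with Cd68, Adgre1, Cpa1 and Ptf1a. After their values were seen, Sctr, Pkhd1, Prom1, Clu, Glis3, Vtcn1, Tead2, Lcn2, H2-Ab1, H2-Aa, Cd74, H2-Eb1, Bhlha15 and Rbpjl were added. The fit was tested on simulated data. Alternatives were quantile normalization, median centring, a filter on dim probe sets, an intensity trend, a robust prior, no moderation, array weights, averaged probe sets, an acinar covariate and leaving out each array. Python 3.11.15 and matplotlib 3.10.9 drew the figures.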

Additional observations from a re-analysis of the deposited data

How the results depend on the processing

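No member probe set passed an adjusted p of 0.05 in limma under any alternative run. The filter, the intensity trend, the robust prior and the fit without moderation cannot change the size of a difference, so they could not reverse one. Median centring changed none either, as all array medians were equal. A member with a difference of exactly 0 could not count as reversed. With these settings and members counted in, 471 of 484 recomputed member differences kept their direction or had none. The 13 that reversed belong to 7 genes whose difference was at most 0.17 in size: Slc4a4 (-0.10 to 0.05 with an array left out), Onecut1 (0.033 averaged, -0.13 to 0.017 with an array left out), Onecut2 (-0.014 with array weights, -0.032 with the acinar covariate, -0.22 to 0.28 with an array left out), Cldn1 (0.008 averaged), Cldn3 (-0.017 to 0.13 with an array left out), Muc1 (0.023 with the covariate) and Mmp7 (-0.12 to 0.033 with an array left out). At an unadjusted p under 0.05 there were 10 member probe sets in the main fit (7.33% of all probe sets). The filter on dim probe sets left 5 of 34 (8.63% of all those kept). The count was 5 without moderation (5.89%), 4 with the covariate (6.52%), 7 with quantile normalization (6.97%) and 13 with array weights (11.2%). Averaged probe sets gave 8 of 33 genes (8.44% of all genes). With an array left out the count was 3 to 11, against 6.59% to 10.1% of all probe sets. Over all probe sets, 13 calls became 30 with quantile normalization, 51 with the robust prior, 26 with array weights, 4 with the covariate, 1 without moderation (286 probe sets without spread not tested) and 1 to 4 with an array left out. The difference of the member mean was -0.14 to -0.079 with an array left out and moved to -0.029 without Dcdc2a and Tff2. The cause was not tested. No paired analysis was possible because the genotypes share no replicate number.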

Other observations

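Keratins and claudins outside the 33 members were also on the array and were looked at after the member values were seen. Of 42 other keratin genes 13 had a mean above the array median, and their median difference was 0 (range -0.20 to 0.23). None passed an adjusted p of 0.05 in limma, and at an unadjusted p under 0.05, where 5.02% of all genes were higher and 3.45% lower, Krt222, Krt14 and Krt80 were higher, by 0.20, 0.20 and 0.23, and Krt12 lower by a difference of -0.17. Of 17 other claudin genes 4 lay above the array median, with a median difference of -0.067 (range -0.53 to 0.23). None passed in limma either, and by the same rule Cldn12 was higher and Cldn10 and Cldn8 lower, the last by a difference of -0.30.

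On the acinar list 22 of 25 genes lay below 0, Rbpjl at 0 and Gatm and Bhlha15 above it. Gatm, which makes the creatine precursor guanidinoacetate, was at 7.1 on all 3 wild-type arrays and at 8.2, 8.5 and 7.9 on the hIAPP_Tg arrays (difference 1.10, limma adjusted p = 0.182), while Cpa1, a pancreatic carboxypeptidase, was at 11.4, 12.8 and 13.1 against 12.8, 10.3 and 11.7, and Ptf1a, a transcription factor of acinar cells, differed by -0.27. Bhlha15, another, differed by 0.13, with overlap.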
